A study of Mus musculus with 2 samples.

Results

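Prostaglandin synthesis and receptor genes are 7 of the 32285 genes counted here: the cyclooxygenases Ptgs1 and Ptgs2, the prostaglandin E synthases Ptges and Ptges3, the degrading dehydrogenase Hpgd, and the receptors Ptger2 and Ptger4. They were chosen by symbol, and all 7 were found in the gene list of both libraries. Single-cell RNA-seq was done on mouse pancreatic tumors formed by orthotopic injection of KPC cells, a mouse pancreatic cancer line. The library labelled FLOX came from mice with floxed MCT1 (Slc16a1) alleles, and the library labelled MCT1-KO from mice with a tamoxifen-activated Col1a2-CreERT2, meant to delete MCT1. How many animals went into each library is not given in the sources used here. The study describes injections of tamoxifen or corn oil before the tumor cells, and whether the FLOX mice carried the Cre and which agent they received are not given in the sources used here, so genotype and agent cannot be told apart. Col1a2 is active in pancreatic stellate cells (PSCs) and other fibroblasts, so the deletion was not meant to reach the injected tumor cells, which are not derived from these mice. The labels give no age, and the study's methods name male mice. Each condition was 1 library, so no comparison had a replicate, no test was run, and every interval covers counting error only.

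Prostaglandins are lipids made from arachidonic acid. Cyclooxygenases convert it to prostaglandin H2, terminal synthases such as Ptges turn this into prostaglandin E2, and the dehydrogenase encoded by Hpgd inactivates the product after uptake. Prostaglandin E2 acts on neighbouring cells through G protein-coupled receptors, of which EP2 (Ptger2) and EP4 (Ptger4) raise cyclic AMP. In tumors this lipid is known for dampening T cell, NK cell and dendritic cell functions, and Ptgs2 is a classic inducible gene of inflamed tissue.

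FLOX held 177334432 UMIs (unique molecular identifiers, each a counted RNA molecule) and MCT1-KO held 151118092. Barcodes with at least 500 UMIs, 200 to 5000 genes and at most 8% mitochondrial UMIs were kept as cells, which left 8739 cells in FLOX and 11689 in MCT1-KO, with median depths of 4069 and 3706 UMIs. Of these, 59 barcodes were kept in both libraries. The cells fell into 26 clusters, of which 21 were named from markers and 5 were left unnamed, and 7 classes had at least 50 cells in each library. All markers of their own list were detected in PSC-like (10 of 10), macrophage-like (11 of 11), neutrophil-like (8 of 8) and endothelial-like cells (7 of 7), and 7 of 9 in dendritic-like cells. In the class that joins T and NK cells, 9 of 9 T cell markers but only 2 of 6 NK markers were detected. The ductal-like class, the one that would hold the injected tumor cells, showed 7 of 12 markers with Epcam and Cldn4 near 0, so its name is weak.

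The libraries also differed in ways that touch every class. In MCT1-KO the stress gene Hspa1a was lower in all 7 classes, with ratios to FLOX from 0.0352 in endothelial-like to 0.265 in PSC-like cells. Markers of acinar cells, the enzyme-secreting cells of the pancreas, summed in PSC-like cells to 77.0 CPM (UMIs of a gene or list per 1000000 UMIs of the class) in FLOX and 1496 in MCT1-KO. The targeted gene Slc16a1 had 25.5 CPM in FLOX PSC-like cells (57 UMIs) and 35.5 in MCT1-KO (112 UMIs), a ratio of 1.39 with an interval of 1.00 to 1.95. The targeted gene was therefore not lower in the library labelled MCT1-KO, against the label. The study itself reported lower MCT1 in PSCs of the knockout mice, in its single-cell plots and by Western blot and PCR of extracted PSCs. Reads at the end of a transcript need not cover the deleted exon, so the counts do not check the deletion, and MCT1-KO is used here as the name of a library only.

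Levels are given as CPM, with the number of UMIs of the gene and an exact Poisson interval. Levels are compared between classes for 1 gene and not between genes. Barcodes with 10 to 100 UMIs, called empty here, give the level of free RNA in each library. Fewer cells expressing a gene and less RNA per cell cannot be told apart in a summed level.

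The class with the highest level was the same in both libraries for 6 of the 7 genes. Neutrophil-like cells led for Ptgs1 and Ptgs2, PSC-like cells for Ptges, ductal-like cells for Ptges3, the T and NK class for Ptger2, and dendritic-like cells for Ptger4. Hpgd was the exception, with macrophage-like cells leading in FLOX and PSC-like cells in MCT1-KO. Not every lead went beyond counting error. The leading class overlapped the next in both libraries for Ptgs1, Ptger2 and Ptges3, and in MCT1-KO for Ptger4. For Ptges3 in FLOX, ductal-like cells had 231 CPM and endothelial-like cells 227 (interval 192 to 266). The 7 genes were thus spread over cell types, with the inducible first enzyme highest in neutrophil-like cells, Ptges in stromal cells, Ptger2 in lymphoid and Ptger4 in dendritic-like cells.

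**Figure D1:**
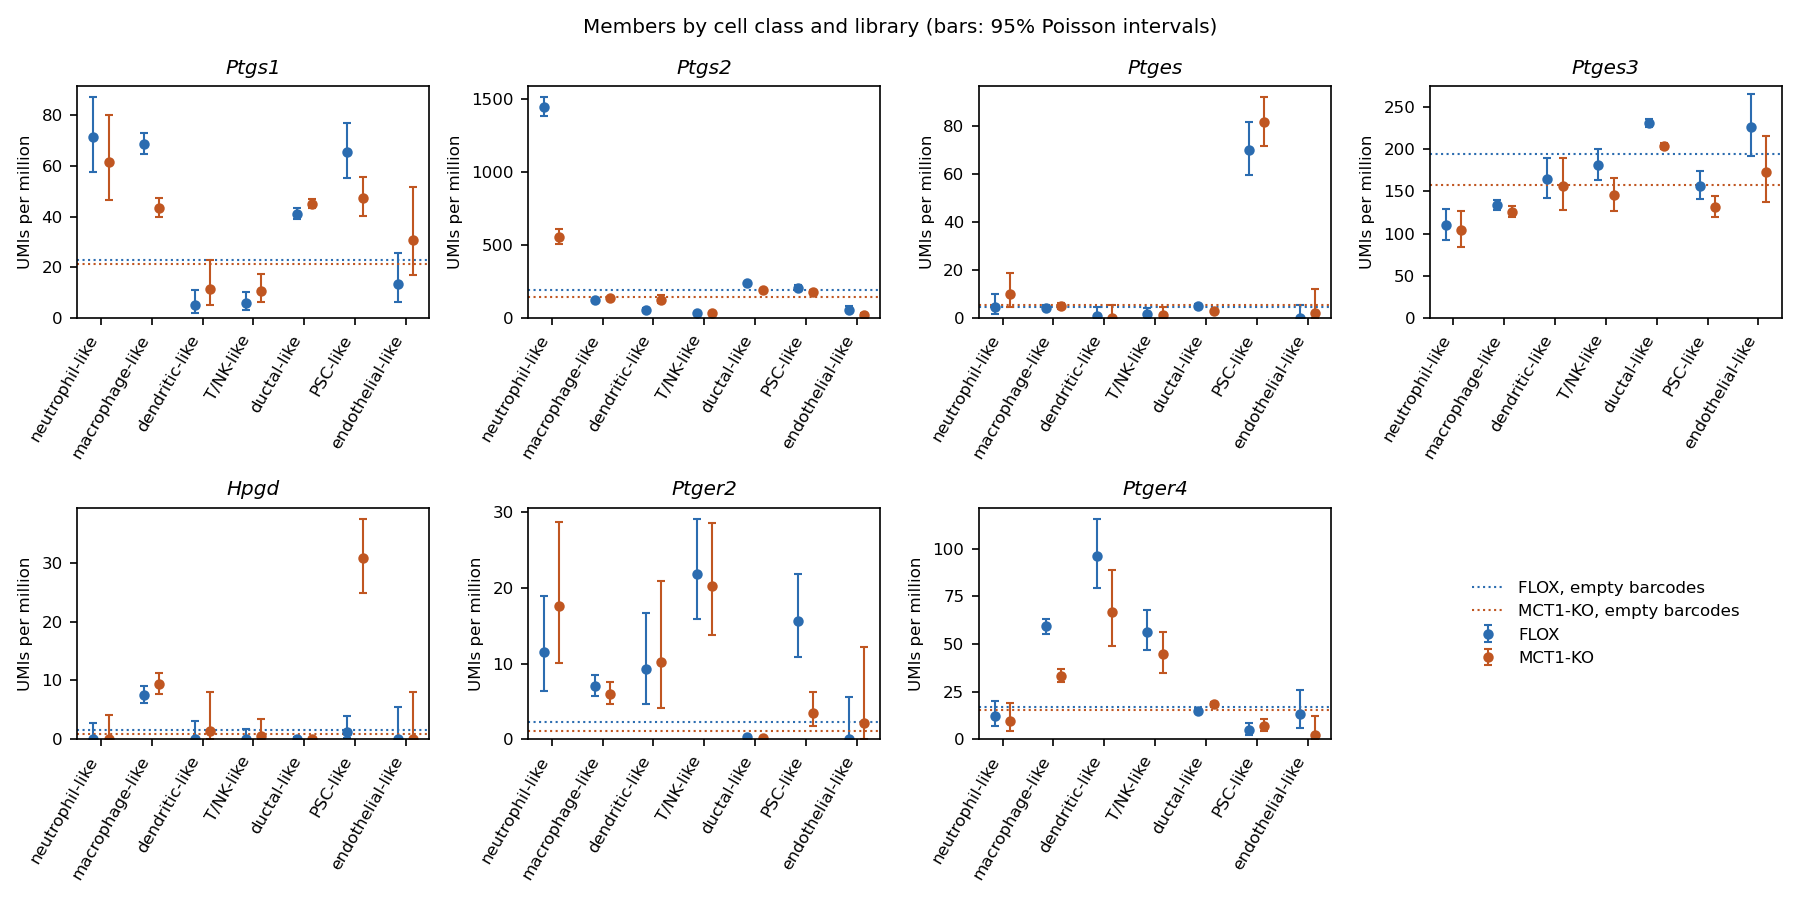
CPM (UMIs of the gene per 1000000 UMIs of the class) of the 7 genes (y axes, each on its own scale from 0) in 7 cell classes (x axes) of FLOX (blue) and MCT1-KO (orange). Points are summed levels of 1 library, bars are 95% Poisson intervals and dotted lines are empty barcodes; Ptgs2 stands out in neutrophil-like cells (1446 and 556), and Ptges in PSC-like cells (69.9 and 81.4).

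Ptgs2 (ENSMUSG00000032487) lies at chr1:150100031-150108227 on the plus strand of GRCm38, with 11 exon blocks in the GENCODE annotation, matched by identifier. It encodes the inducible cyclooxygenase. Ptgs1 (ENSMUSG00000047250), its constitutive relative, lies at chr2:36230426-36252272 on the plus strand, also with 11. Ptges (ENSMUSG00000050737), the membrane-bound prostaglandin E synthase that is often induced together with Ptgs2, lies at chr2:30889471-30929863 on the minus strand. Because these 3 synthesis genes were spread differently over the cell classes, their promoters from RefSeq (GRCm38.p6, 250 bases before to 50 after the start) are shown with the motif matches in capitals. The windows are chr1:150099781-150100080 (plus strand) for Ptgs2, chr2:36230176-36230475 (plus strand) for Ptgs1 and chr2:30903248-30903547 (minus strand) for Ptges, which lies inside the annotated span of that gene because RefSeq uses an inner transcript start.
Ptgs2: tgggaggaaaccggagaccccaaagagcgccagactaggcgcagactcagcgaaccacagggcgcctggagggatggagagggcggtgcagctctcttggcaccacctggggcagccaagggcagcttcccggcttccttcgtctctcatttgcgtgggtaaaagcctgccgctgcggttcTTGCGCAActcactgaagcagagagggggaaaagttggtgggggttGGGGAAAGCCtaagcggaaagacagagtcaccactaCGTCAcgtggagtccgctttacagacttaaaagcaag
Ptgs1: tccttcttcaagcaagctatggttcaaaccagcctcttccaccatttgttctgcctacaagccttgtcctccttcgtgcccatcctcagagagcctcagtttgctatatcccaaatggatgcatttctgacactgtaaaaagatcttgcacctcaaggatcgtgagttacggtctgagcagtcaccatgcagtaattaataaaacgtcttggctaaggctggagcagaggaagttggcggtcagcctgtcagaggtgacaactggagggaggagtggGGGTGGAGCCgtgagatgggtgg
Ptges: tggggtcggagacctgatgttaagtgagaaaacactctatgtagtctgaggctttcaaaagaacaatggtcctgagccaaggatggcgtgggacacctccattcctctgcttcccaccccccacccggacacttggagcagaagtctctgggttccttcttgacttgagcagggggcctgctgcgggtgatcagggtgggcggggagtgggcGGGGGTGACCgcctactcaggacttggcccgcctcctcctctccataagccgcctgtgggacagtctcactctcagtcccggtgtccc
A set of 5 motifs was searched on both strands of 32851 promoters. The TATA box (TATAAA) was in 13.6% of all promoters, the CRE core (TGACG) in 20.8%, AP-1 (TGANTCA) in 7.81%, C/EBP (TTNNGCAA) in 10.8% and a loose NF-kB motif (GGG, any 5 bases, CC) in 50.8%. Ptgs2 had a C/EBP match at -69 to -62, an NF-kB match at -23 to -14 and a CRE core, read as CGTCA on the printed strand, at 14 to 18, counted from the start as 1. Ptges held 1 NF-kB match at -38 to -29 and Ptgs1 held 1 at 28 to 37, and no match in these 3 windows overlapped another. The 4 other genes are described without their promoters. A match describes these letters only and does not show that a factor binds there.

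In neutrophil-like cells, Ptgs2 had 1446 CPM in FLOX (1886 UMIs, interval 1382 to 1513) and 556 in MCT1-KO (504 UMIs, 509 to 607). The other compared classes lay far below these values in both libraries. Ductal-like cells had 239 (8214 UMIs) and 193 (10622 UMIs), PSC-like cells 207 (462 UMIs) and 179 (564 UMIs), and macrophage-like cells 125 (1962 UMIs) and 133 (1585 UMIs). Empty barcodes had 189 and 146 CPM. The macrophage-like values and those of the T and NK class (32.4 from 67 UMIs and 31.0 from 49) lay below these, and the PSC-like intervals of 188 to 227 and 164 to 194 lay at them or just above. Acinar genes put free RNA at 37.6% and 13.5% of macrophage-like UMIs, so a level below empty barcodes need not be all free RNA. In FLOX this share was too large. Ductal markers had 215 CPM in FLOX macrophage-like cells and 1907 in empty barcodes, less than a 37.6% share would bring. The same held in FLOX T and NK cells, where acinar genes gave 40.8% and macrophage markers were 1692 against 13080. Subtraction with these shares took too much from FLOX, and levels below 0 were set to 0. It gave Ptgs2 levels of 87.0 and 131 in macrophage-like cells, 215 and 183 in PSC-like cells, and 0 and 8.51 in T and NK cells. Ductal-like cells, being many and deep, held 62.8% of all Ptgs2 UMIs in cells of FLOX and 74.2% in MCT1-KO, whereas neutrophil-like cells held 14.4% and 3.52%. In order of level the FLOX classes were neutrophil-like, ductal-like, PSC-like, macrophage-like, endothelial-like (57.4), dendritic-like (51.6) and T and NK cells, and the intervals of the last 3 overlapped each other.

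Both neutrophil-like clusters carried Ptgs2. The cluster led by Hdc, Il1r2 and Il23a (cluster 8) had 1725 CPM of Ptgs2 in FLOX and 741 in MCT1-KO, and the cluster led by Retnlg, Ngp and Camp (cluster 13), granule genes of younger neutrophils, had 1041 and 294. The MCT1-KO value was lower in both, with Ptgs2 ratios of 0.429 (interval 0.383 to 0.481) and 0.282 (0.228 to 0.347). A UMI of Ptgs2 was seen in 72.3% of the neutrophil-like cells of FLOX and in 35.5% in MCT1-KO, where the cells were shallower (median 1075 against 1471 UMIs). With every cell thinned to 1000 UMIs, the shares were 63.0% of 703 cells and 34.9% of 436 cells, with 54 and 268 shallower cells left out. In T and NK cells, which should hold little Ptgs2, the thinned shares were 2.19% and 2.94%, at median depths of 3000.5 and 2442 UMIs.

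Within the ductal-like class, Ptgs2 followed the cluster. It was highest in the cluster led by Lif, Cxcl1 and Ereg (cluster 6), with 374 CPM in FLOX and 327 in MCT1-KO, and in the cluster led by interferon-induced guanylate-binding proteins (cluster 17), with 299 and 297. The cluster led by Slurp1, Krt19 and Msln (cluster 9) had 183 and 123, and the cycling cluster (cluster 7) 119 and 96.7. Macrophage-like cells were split too. The Arg1-led cluster 4 held 206 and 242 CPM of Ptgs2, close to empty barcodes in FLOX and above them in MCT1-KO, while the cluster 1 of Apoe, Mertk and complement C1q genes held 77.7 and 68.0, below them. The clusters were made from the 2000 most variable genes of these same cells, so these levels describe them and are no test.

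**Figure D2:**
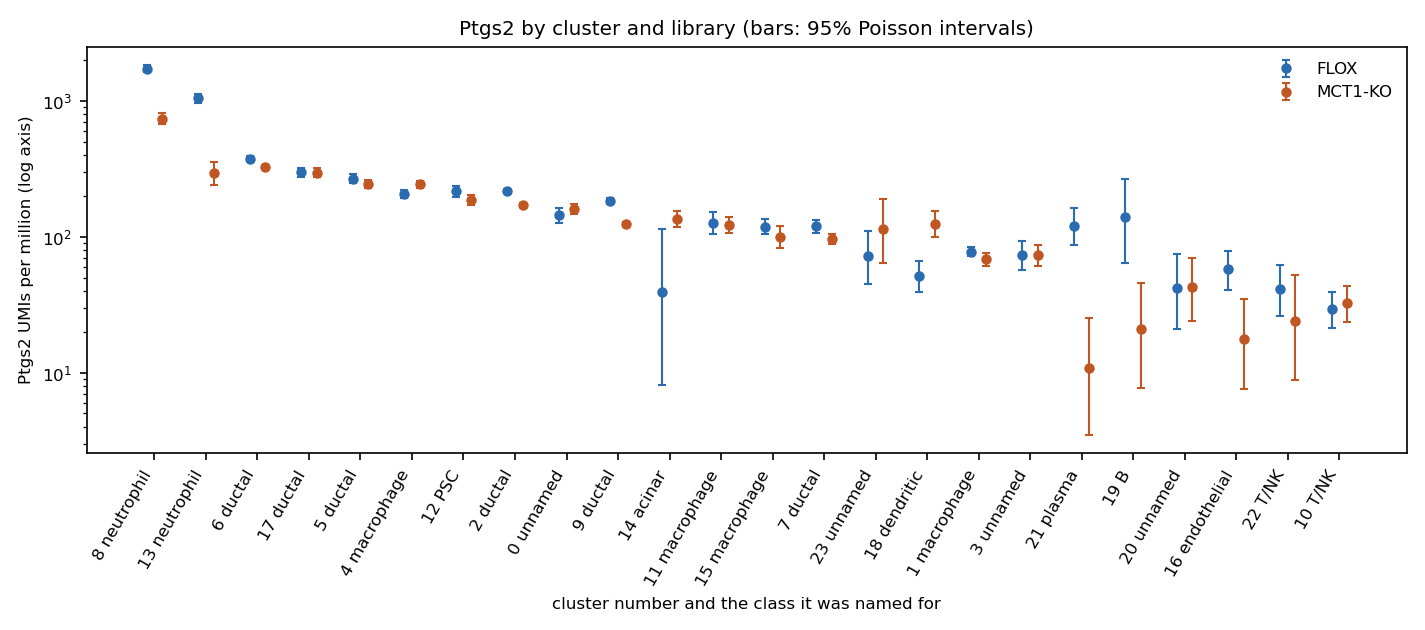
Ptgs2 CPM (log y axis) in the 24 clusters with at least 50 cells (x axis, cluster number and class) of FLOX (blue) and MCT1-KO (orange), ordered by level. Points are summed levels of 1 library with 95% Poisson intervals; the neutrophil-like clusters 8 (1725 and 741) and 13 (1041 and 294) are the highest in FLOX, and cluster 6 (374 and 327) is the highest ductal-like cluster.

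Ptgs1 was more evenly spread. FLOX levels were 71.3 CPM in neutrophil-like cells (93 UMIs, interval 57.6 to 87.4), 68.8 in macrophage-like cells (1077 UMIs, 64.8 to 73.1) and 65.4 in PSC-like cells (146 UMIs, 55.2 to 76.9), and these 3 intervals overlapped. Ductal-like cells followed with 41.3 (1419 UMIs), and T and NK cells (5.81 from 12 UMIs) and dendritic-like cells (5.08 from 6 UMIs) lay under the 22.8 of empty barcodes. In MCT1-KO the Ptgs1 level was 61.8 in neutrophil-like (56 UMIs), 47.5 in PSC-like (150 UMIs), 45.2 in ductal-like (2489 UMIs) and 43.5 in macrophage-like cells (518 UMIs), and all 4 intervals overlapped, that of neutrophil-like cells being 46.7 to 80.2. Among macrophage-like cells, the cluster of Apoe, Mertk and C1q genes held more Ptgs1 than the Arg1-led cluster in both libraries, at 84.2 against 49.1 in FLOX and 48.7 against 37.3 in MCT1-KO, the reverse of the order for Ptgs2.

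Ptges was the most restricted of the synthesis genes. PSC-like cells had 69.9 CPM in FLOX (156 UMIs, interval 59.3 to 81.7) and 81.4 in MCT1-KO (257 UMIs, 71.8 to 92.0), whereas empty barcodes had 4.53 and 5.26. No other compared class went above 4.88 in FLOX or 9.93 in MCT1-KO. The plasma-like cells (cluster 21), too few to be compared, held 9 Ptges UMIs among 348586 UMIs in FLOX and 4 among 465922 in MCT1-KO. With cells put into classes by their own marker UMIs in place of clusters, the Ptges levels of PSC-like cells were 11.0 and 10.4. That class had 856 cells in FLOX and 829 in MCT1-KO, of which 542 and 421 were ductal-like by cluster and 114 and 184 PSC-like. PSC-like cells made up 2.70% and 3.63% of the cells but held 37.7% and 52.0% of the Ptges UMIs. A Ptges UMI was seen in 36.4% and 31.8% of PSC-like cells (median 8130 and 6850.5 UMIs), and in 7.69% and 6.75% after thinning to 1000 UMIs. In T and NK cells, before thinning, 3 of 532 and 2 of 483 cells held a Ptges UMI. All Ptges UMIs of the PSC-like class came from the fibroblast cluster led by Col1a2 and Sfrp1 (cluster 12). The small mural cluster led by Rgs5, Actg2 and Myh11 (cluster 25) had no Ptges UMI in its 16 cells of FLOX and 24 of MCT1-KO, with intervals that reached 30.3 and 25.7 CPM.

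Ductal-like cells had few UMIs of Ptges per cell, with 4.88 CPM in FLOX (168 UMIs) and 2.74 in MCT1-KO (151 UMIs). Their Lif- and Cxcl1-led cluster 6 was higher, with 11.0 and 5.57. Ptges3 (ENSMUSG00000071072, chr10:128058954-128077272, plus strand), a co-chaperone of Hsp90 that also has prostaglandin E synthase activity, was found in every class. Its levels ran from 110 CPM in neutrophil-like to 231 in ductal-like cells of FLOX and from 104 to 204 in the same classes of MCT1-KO. Empty barcodes held 194 and 157 CPM of Ptges3, within that range. With free RNA subtracted, the Ptges3 level of neutrophil-like cells was 2.15 in FLOX and 72.0 in MCT1-KO, so it was not measured apart from free RNA there, and its ratio of MCT1-KO to FLOX went from 0.946 to 33.5.

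Whether the cells with Ptgs2 were also those with Ptges was described in a separate random draw of cells thinned to 1000 UMIs, so its counts differ slightly from the thinned shares above. Among PSC-like cells of FLOX, Ptges was seen in 3 of 32 cells with Ptgs2 (9.38%, exact binomial interval 1.98 to 25.0%) and in 9 of 176 without it (5.11%, 2.36 to 9.49%). In MCT1-KO the counts were 3 of 54 (5.56%, 1.16 to 15.4%) and 18 of 331 (5.44%, 3.25 to 8.46%). At this depth the intervals overlapped in both libraries. Thinned to 2000 UMIs, the FLOX shares were 14.3% of 42 cells with Ptgs2 and 13.5% of 148 without it, and those of MCT1-KO turned the other way, 4.17% of 72 and 11.4% of 280, also with overlapping intervals. Without thinning, Ptges was in 49.1% of FLOX PSC-like cells with Ptgs2 and in 26.2% of those without, but their median depths were 13517 and 3608.5 UMIs. The matching unthinned values of MCT1-KO were 38.2% and 27.8%, at 9087 and 5673 UMIs. In neutrophil-like cells, Ptges was seen in 1 of 452 cells with Ptgs2 in FLOX (0.221%) and 3 of 159 in MCT1-KO (1.89%), so the class with the highest Ptgs2 level held almost no Ptges.

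Hpgd (ENSMUSG00000031613, chr8:56294585-56321043, plus strand) starts the breakdown of prostaglandin E2. Macrophage-like cells had 7.54 CPM in FLOX (118 UMIs, interval 6.24 to 9.03) and 9.40 in MCT1-KO (112 UMIs, 7.74 to 11.3), against 1.57 and 0.870 in empty barcodes. The cluster of Apoe, Mertk and C1q genes held most of these, at 10.5 and 14.6, and the Arg1-led cluster 5.01 and 5.67. Ductal-like cells had 0.145 (5 UMIs) and 0.0726 (4 UMIs), below empty barcodes. Neutrophil-like and endothelial-like cells held 0 UMIs, with intervals that reached 2.83 CPM in FLOX and 4.07 in MCT1-KO for neutrophil-like cells and 5.57 and 8.09 for endothelial-like cells. The unnamed cluster 20, led by gastric Tff1 and Gkn1 and islet Ins2, had 53.3 (14 UMIs in 36 cells) and 17.0 (6 UMIs in 67 cells).

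Ptger2 (ENSMUSG00000037759, chr14:44988195-45003820, plus strand) encodes the EP2 receptor. It was highest in T and NK cells, with 21.8 CPM in FLOX (45 UMIs, interval 15.9 to 29.1) and 20.2 in MCT1-KO (32 UMIs, 13.8 to 28.6). PSC-like cells came next in FLOX with 15.7 (35 UMIs, 10.9 to 21.8), which overlapped T and NK cells, and had 3.48 (11 UMIs) in MCT1-KO. Neutrophil-like cells had 11.5 (15 UMIs) and 17.7 (16 UMIs), dendritic-like cells 9.31 (11 UMIs) and 10.1 (7 UMIs), and macrophage-like cells 7.03 (110 UMIs) and 6.05 (72 UMIs). The intervals of neutrophil-like and dendritic-like cells overlapped those of T and NK cells, and those of macrophage-like cells did not. Within the T and NK class, the cluster led by Gzmf (cluster 22) had 25.2 and 39.8, and the larger cluster 10 had 20.5 and 16.5, which overlapped. Ductal-like cells had 0.262 (9 UMIs) and 0.127 (7 UMIs), below the 2.25 and 1.07 of empty barcodes.

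Ptger4 (ENSMUSG00000039942, chr15:5206661-5244187, minus strand) encodes the EP4 receptor. Dendritic-like cells led with 96.5 CPM in FLOX (114 UMIs, interval 79.6 to 116) and 66.7 in MCT1-KO (46 UMIs, 48.8 to 88.9). Macrophage-like cells followed in FLOX with 59.3 (927 UMIs, 55.5 to 63.2) and T and NK cells with 56.6 (117 UMIs, 46.8 to 67.8), which did not differ beyond their intervals. In MCT1-KO the T and NK class had 44.9 (71 UMIs, 35.0 to 56.6) and macrophage-like cells 33.5 (399 UMIs, 30.3 to 37.0). The neutrophil-like, ductal-like, PSC-like and endothelial-like levels of Ptger4, between 2.19 and 18.4, lay at most slightly above the 17.2 and 15.3 of empty barcodes. Both receptor genes share exon bases with a gene on the opposite strand, Ptger4 with Ttc33 (82 bases) and Ptger2 with Gm17173 (246 bases), and the sources used here do not say whether counting used strand. Ttc33 had 9961 UMIs in the kept cells and Gm17173 had 132.

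The design compares tumor tissue of mice meant to lack MCT1 in Col1a2-expressing cells with that of floxed controls, though Slc16a1 itself was not lower in the library labelled MCT1-KO. Each gene was compared in each of the 7 classes as the ratio of MCT1-KO to FLOX, and a ratio of at least 2 or at most 0.5 with at least 20 UMIs over both libraries was counted as past the fold. Of 49 pairs of gene and class, 35 had enough UMIs, 6 of these were past the fold, 3 higher and 3 lower in MCT1-KO, and 18 had intervals that held 1. Those 6 were Ptgs2 in neutrophil-like, endothelial-like and dendritic-like cells, Ptgs1 in endothelial-like cells, and Hpgd and Ptger2 in PSC-like cells.

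These counts were read against all genes of each class. In PSC-like cells 2 of 7 members were past the fold, 1 higher and 1 lower, against 10% of 11043 genes. The endothelial-like class had 2 of 3 against 10.5% of 6543 genes, the dendritic-like class 1 of 3 against 10.8% of 7387, and the neutrophil-like class 1 of 5 against 10.9% of 7579. No member was past the fold in macrophage-like cells (0 of 7, background 8.41%), ductal-like cells (0 of 5, background 7.89%) or T and NK cells (0 of 5, background 7.48%). With 3 to 7 members measured in a class, 1 member more or less moves its share by more than the whole background, so these counts do not set the group apart. The median ratio of the members was 0.863 in PSC-like, 0.881 in ductal-like, 0.937 in macrophage-like and 0.867 in neutrophil-like cells, where the medians over all genes were 0.979, 1.01, 1.02 and 1.08.

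**Figure D3:**
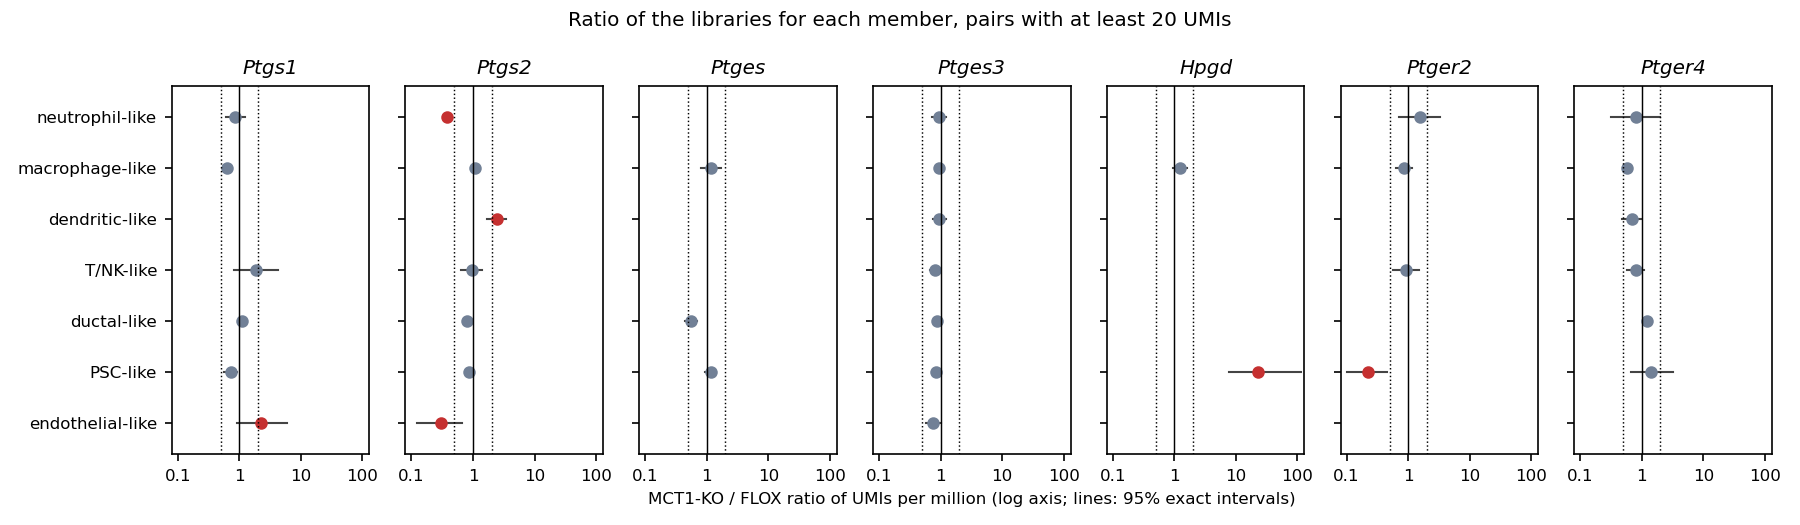
Ratio of MCT1-KO to FLOX in CPM (log x axis) for each of the 7 genes in each class (y axis), for pairs with at least 20 UMIs. Points are ratios of 1 library to 1 library, lines are 95% exact intervals, dotted lines mark 0.5 and 2, and red points are the 6 ratios past the fold, from 0.222 for Ptger2 to 22.9 for Hpgd, both in PSC-like cells.

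The Ptgs2 ratio in neutrophil-like cells was 0.385, with an interval of 0.348 to 0.425. Other immediate-response genes were lower there as well: Jun had a ratio of 0.382 (interval 0.345 to 0.422) and Fos 0.494 (0.466 to 0.523). Both were lower in all 7 classes, with ratios from 0.350 in T and NK cells to 0.747 in PSC-like cells for Jun and from 0.459 in endothelial-like to 0.818 in PSC-like cells for Fos, also where Ptgs2 was not lower, and their part in the Ptgs2 value was not tested. Cxcl2, a neutrophil-attracting chemokine with far more counts, had 29639 CPM in FLOX and 12970 in MCT1-KO, a ratio of 0.438. Il1b, at 15574 and 12134, and Tnf, at 807 and 746, had ratios nearer to 1. The neutrophil markers themselves summed to 76809 and 78622 CPM, mostly from S100a8 and S100a9, and all 8 were found in both libraries. Singly they were not level. G0s2 (5395 and 1430), Csf3r (1061 and 540), Mmp9 (543 and 301) and Hdc (3365 and 1916) were lower in MCT1-KO. S100a8 (31848 and 37899) and Retnlg (4373 and 6373) were higher, and S100a9 (29828 and 29763) and Cxcr2 (396 and 401) were about equal. Monocyte markers, which here include Chil3, summed to 1475 (4 of 6 markers) and 7703 (5 of 6) in this class, and acinar markers to 137 and 4614 (7 of 7 in both). Mast cell markers went the way of Ptgs2, from 117 CPM (153 UMIs, 6 of 7 markers) in FLOX to 0 in MCT1-KO. The part of these markers was not tested. Acinar genes put free RNA at 55.9% of the neutrophil-like UMIs in FLOX and 37.3% in MCT1-KO. Macrophage markers were 1737 and 1198 CPM there and 13080 and 10178 in empty barcodes, fewer than such shares would bring. Subtraction with these shares, which takes too much, gave Ptgs2 levels of 3041 and 800 CPM and a ratio of 0.263. Over 13 alternatives, of which this was the lowest, the ratio stayed between 0.263 and 0.411.

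In dendritic-like cells Ptgs2 had 51.6 CPM in FLOX (61 UMIs, interval 39.5 to 66.3) and 125 in MCT1-KO (86 UMIs, 99.7 to 154), a ratio of 2.42 (1.72 to 3.41). Both values lay below those of empty barcodes, though the MCT1-KO interval held the empty-barcode level. The ratio was 1.57, short of the fold, with cells put into classes by their own marker UMIs. Free RNA subtracted by acinar genes, 33.1% of the UMIs in FLOX and 8.71% in MCT1-KO, left Ptgs2 at 0 and 123 CPM. The FLOX share was too large, as macrophage markers were 1848 CPM there and 13080 in empty barcodes. That 0 is a negative value set to 0, so this setting gave no ratio. Ductal markers in dendritic-like cells summed to 171 CPM in FLOX (11 of 12 found) and 519 in MCT1-KO (9 of 12), acinar markers to 81.2 and 1079 (7 of 7 in both) and the dendritic markers themselves to 1587 and 947 (9 of 9 in both), and their part was not tested. In endothelial-like cells it had 57.4 (38 UMIs) and 17.6 (8 UMIs), a ratio of 0.306 (0.123 to 0.666), also below empty barcodes in both libraries. Endothelial-like macrophage-marker UMIs went the same way, from 3128 to 1431 CPM (11 of 11 markers in both), and their part was not tested. With cells put into classes by their own marker UMIs, this Ptgs2 ratio was 1.20. Ptgs1 in endothelial-like cells had 13.6 (9 UMIs) and 30.7 (14 UMIs), a ratio of 2.26 whose interval of 0.911 to 5.92 held 1, and it was 0.914 when no upper limit on genes was set.

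In macrophage-like cells, Ptgs1 had a ratio of 0.632 (interval 0.568 to 0.702) and Ptger4 0.565 (0.502 to 0.636), both short of the fold. Ptger4 was lower in MCT1-KO in each of the 4 macrophage-like clusters, at 59.2 and 38.2 CPM in the cluster of Apoe and C1q genes, 61.4 and 36.7 in the Arg1-led cluster, 65.1 and 22.0 in the cycling cluster 15, and 34.0 and 19.7 in cluster 11. Acinar genes put free RNA at 37.6% of the macrophage-like UMIs in FLOX and 13.5% in MCT1-KO. With it subtracted, the Ptgs1 and Ptger4 ratios went past the fold, to 0.486 and 0.430. The FLOX share was too large, as ductal markers were 215 CPM in these cells against 1907 in empty barcodes. In MCT1-KO they were 326 against 2018. These values therefore do not show a 2-fold difference. Ptgs2 and Hpgd had ratios of 1.06 (0.993 to 1.13) and 1.25 (0.954 to 1.63), and the same subtraction gave 1.51 for Ptgs2 and 0.964 for Hpgd. In dendritic-like cells the Ptger4 ratio was 0.691 (0.480 to 0.981). T cell markers, of a type that carries Ptger4, went the same way, from 18.2 to 6.63 CPM in macrophage-like cells (9 of 9 in both) and from 99.9 (9 of 9) to 5.80 (3 of 9) in dendritic-like cells. Neutrophil markers in macrophage-like cells went from 301 to 177 (8 of 8 in both), and the part of these markers was not tested.

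In ductal-like cells the ratios were 0.808 for Ptgs2 (interval 0.785 to 0.831), 0.561 for Ptges (0.448 to 0.704), 1.10 for Ptgs1 (1.03 to 1.17), 0.881 for Ptges3 (0.856 to 0.907) and 1.23 for Ptger4 (1.10 to 1.37). The intervals leave out the spread between animals. PSC markers in ductal-like cells summed to 2148 CPM in FLOX and 1362 in MCT1-KO (10 of 10 in both), the direction of Ptges, and their part was not tested. In T and NK cells the receptors had ratios of 0.929 for Ptger2 and 0.793 for Ptger4, and both intervals held 1. In PSC-like cells, where MCT1 was targeted, Ptges had 1.16 (0.951 to 1.43), Ptgs2 0.863 (0.762 to 0.978), Ptgs1 0.727 (0.575 to 0.919) and Ptges3 0.841 (0.727 to 0.972). These directions did not all hold. The Ptges ratio in PSC-like cells was 0.921 after subtraction of free RNA, the Ptgs2 ratio was 1.15 without the cells that held at least 3 UMIs of 4 mesothelial markers, and the Ptgs1 ratio was 1.11 with cells put into classes by their own marker UMIs. The share subtracted in FLOX PSC-like cells, 31.4%, was too large, as macrophage markers were 2505 CPM there and 13080 in empty barcodes.

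Hpgd in PSC-like cells had the ratio farthest from 1. FLOX held 3 UMIs in 236 cells (1.34 CPM, interval 0.277 to 3.93) and MCT1-KO 97 UMIs in 424 cells (30.7, 24.9 to 37.5), a ratio of 22.9 with an interval of 7.60 to 113. The MCT1-KO UMIs came from 25 cells, with up to 16 in 1 cell. Most were in cells with mesothelial markers (Upk3b, Upk1b, Lrrn4 and Wt1): 85 of the 97 UMIs lay in the 103 cells with at least 3 UMIs of these 4 genes, where Hpgd had 76.7 CPM, and the 207 cells with none held 6. FLOX had 76 PSC-like cells with at least 3 mesothelial UMIs, deeper at a median of 14994.5 against 10575 UMIs, and they held 0 Hpgd UMIs (interval up to 3.32 CPM). Mesothelial markers summed over the class to 326 CPM in FLOX and 257 in MCT1-KO, with 4 of 4 found in both. Wt1 is also known in some fibroblasts. By the other 3 markers alone, 40 of the 97 Hpgd UMIs lay in 16 cells with at least 3 UMIs (181 CPM). Another 15 lay in 20 cells with 1 or 2 (86.4) and 42 in 388 cells with none (15.2). The count of 85 UMIs above thus rests on Wt1, while the rise of the Hpgd level with mesothelial markers was also seen without it.

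The 25 MCT1-KO cells with Hpgd differed from the other PSC-like cells in further genes, named here after their values were seen. Krt19, a keratin of epithelia and mesothelium, had 168 CPM in them against 11.0 in the other 399 cells, the protease inhibitor Slpi had 4022 against 865, and the keratinocyte-type secreted Dmkn had 530 against 91.7. Adipocyte markers in PSC-like cells summed to 0.896 CPM in FLOX, with 2 of 4 found, and to 1014 in MCT1-KO, with 4 of 4 found. With PSC-like cells that held at least 3 UMIs of the mesothelial markers other than Wt1 or of the adipocyte markers left out, the Hpgd ratio was 14.0. With the cells that held at least 3 UMIs of all 4 mesothelial markers together left out, 3 Hpgd UMIs remained in 160 cells of FLOX and 12 in 321 cells of MCT1-KO (2.68 and 5.86 CPM), a ratio of 2.19 whose interval of 0.591 to 12.1 held 1. With classes set per cell from marker UMIs, PSC-like cells held 3 and 7 Hpgd UMIs (0.331 and 0.934 CPM). By cluster, 542 of these 856 cells in FLOX and 421 of 829 in MCT1-KO were ductal-like, and in this setting mesothelial markers could put a cell in another class.

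Ptger2 in PSC-like cells went the other way, with 15.7 CPM in FLOX (35 UMIs, interval 10.9 to 21.8) and 3.48 in MCT1-KO (11 UMIs, 1.74 to 6.23), a ratio of 0.222 (0.102 to 0.448). The same split applied to FLOX: 26 of its 35 Ptger2 UMIs lay in the 76 cells with at least 3 mesothelial UMIs (23.4 CPM), against 5 UMIs in the 103 such cells of MCT1-KO (4.51). Without those cells 9 and 6 Ptger2 UMIs remained, a ratio of 0.365 whose interval of 0.107 to 1.15 held 1, and with classes set per cell from marker UMIs there were 8 and 2. The count of 26 rests on Wt1. By the other 3 markers alone, 3 of the FLOX Ptger2 UMIs lay in 10 cells with at least 3 marker UMIs (25.3 CPM, interval 5.22 to 74.0). Another 30 lay in 208 cells with none (15.6 CPM). Islet markers in PSC-like cells summed to 356 CPM in FLOX (5 of 7 found) and 6.97 in MCT1-KO (4 of 7), and the PSC markers themselves to 26796 and 19177 (10 of 10 in both), the direction of Ptger2, and their part was not tested. Among these PSC markers, Dcn was higher in MCT1-KO (4474 and 6416 CPM) and Pdgfrb nearly level (82.9 and 80.8). The others were lower, most of all Acta2 (1273 and 389) and Tagln (1208 and 289). Ptges was higher in cells with at least 3 mesothelial UMIs than in those with none in both libraries, at 81.9 against 47.4 in FLOX and 109 against 45.1 in MCT1-KO, and Ptgs2 was 252 against 127 and 165 against 141. The Ptgs2 intervals of MCT1-KO overlapped, and its cells with 1 or 2 mesothelial UMIs had 237. By the markers other than Wt1, Ptges was 84.4 against 70.3 in FLOX and 94.9 against 82.2 in MCT1-KO, with overlapping intervals. Ptgs2 then turned the other way, 127 against 215 and 140 against 179, also with overlapping intervals. The cells were split by markers that go with depth. With all 4 markers the medians were 14994.5 and 3438.5 UMIs in FLOX and 10575 and 4493 in MCT1-KO.

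**Figure D4:**
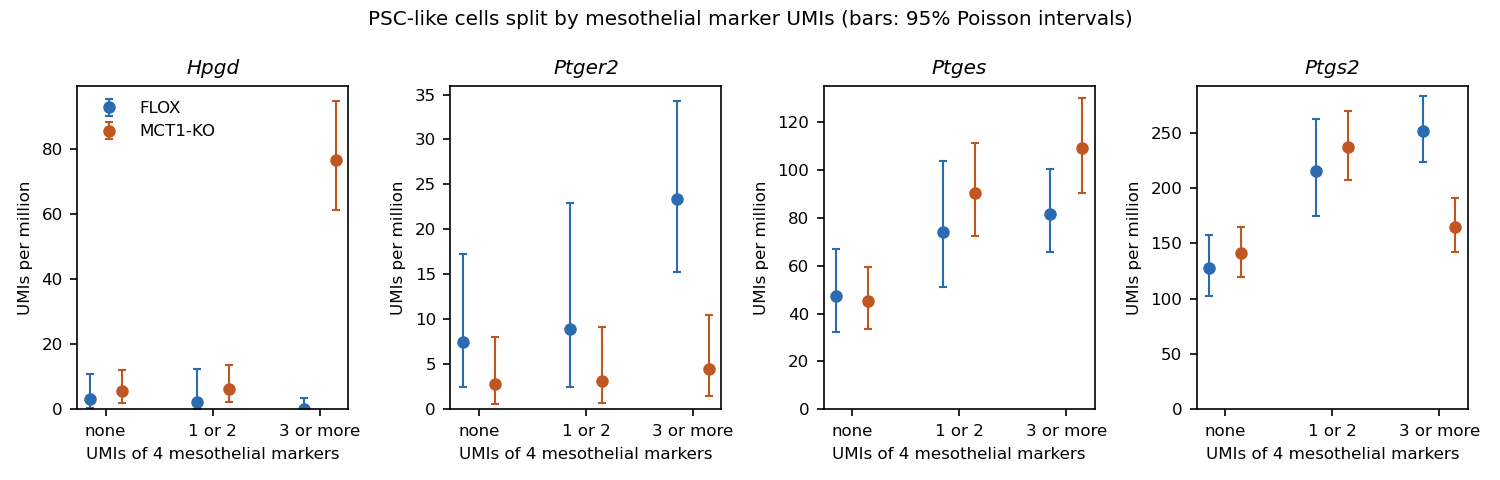
CPM (y axes from 0) of Hpgd, Ptger2, Ptges and Ptgs2 in PSC-like cells with no, 1 or 2, or at least 3 UMIs of 4 mesothelial markers (x axes), in FLOX (blue) and MCT1-KO (orange), with 95% Poisson intervals. Hpgd reaches 76.7 in the MCT1-KO cells with at least 3 marker UMIs and at most 6.23 at the other points, and Ptger2 is highest in the FLOX cells of that kind (23.4).

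Around the members, 34 other genes were described in 6 lists: substrate release (4 genes), other synthases (7), other receptors (7), transport and inactivation (4), the leukotriene branch (4) and inflammatory genes often induced with Ptgs2 (8), which are not part of the lipid pathway. Prostacyclin synthase (Ptgis) also led in PSC-like cells, with 357 CPM in FLOX and 375 in MCT1-KO, and 1981 of its 2199 UMIs in kept cells lay there. So did the EP3 receptor gene Ptger3, with 117 and 71.9, and 488 of its 579 UMIs. Thromboxane synthase (Tbxas1) and the hematopoietic prostaglandin D synthase (Hpgds) led in macrophage-like cells, at 192 and 110 for Tbxas1 and 128 and 82.6 for Hpgds. The phospholipase A2 gene Pla2g4a, which frees arachidonic acid, was present in PSC-like (58.7 and 36.1) and macrophage-like cells (54.6 and 49.9). Endothelial-like cells led for Slco2a1, the uptake carrier of prostaglandins, at 202 and 360, and for the exporter Abcc4, at 57.4 and 54.9. Neutrophil-like cells led for the leukotriene genes Alox5 (91.2 and 91.6) and Alox5ap (1231 and 1394). The receptor genes Ptgir, Ptgfr and Tbxa2r stayed under 11 CPM in every compared class, and Ptgdr and Ptgdr2 had 2 and 8 UMIs in all kept cells.

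**Figure D5:**
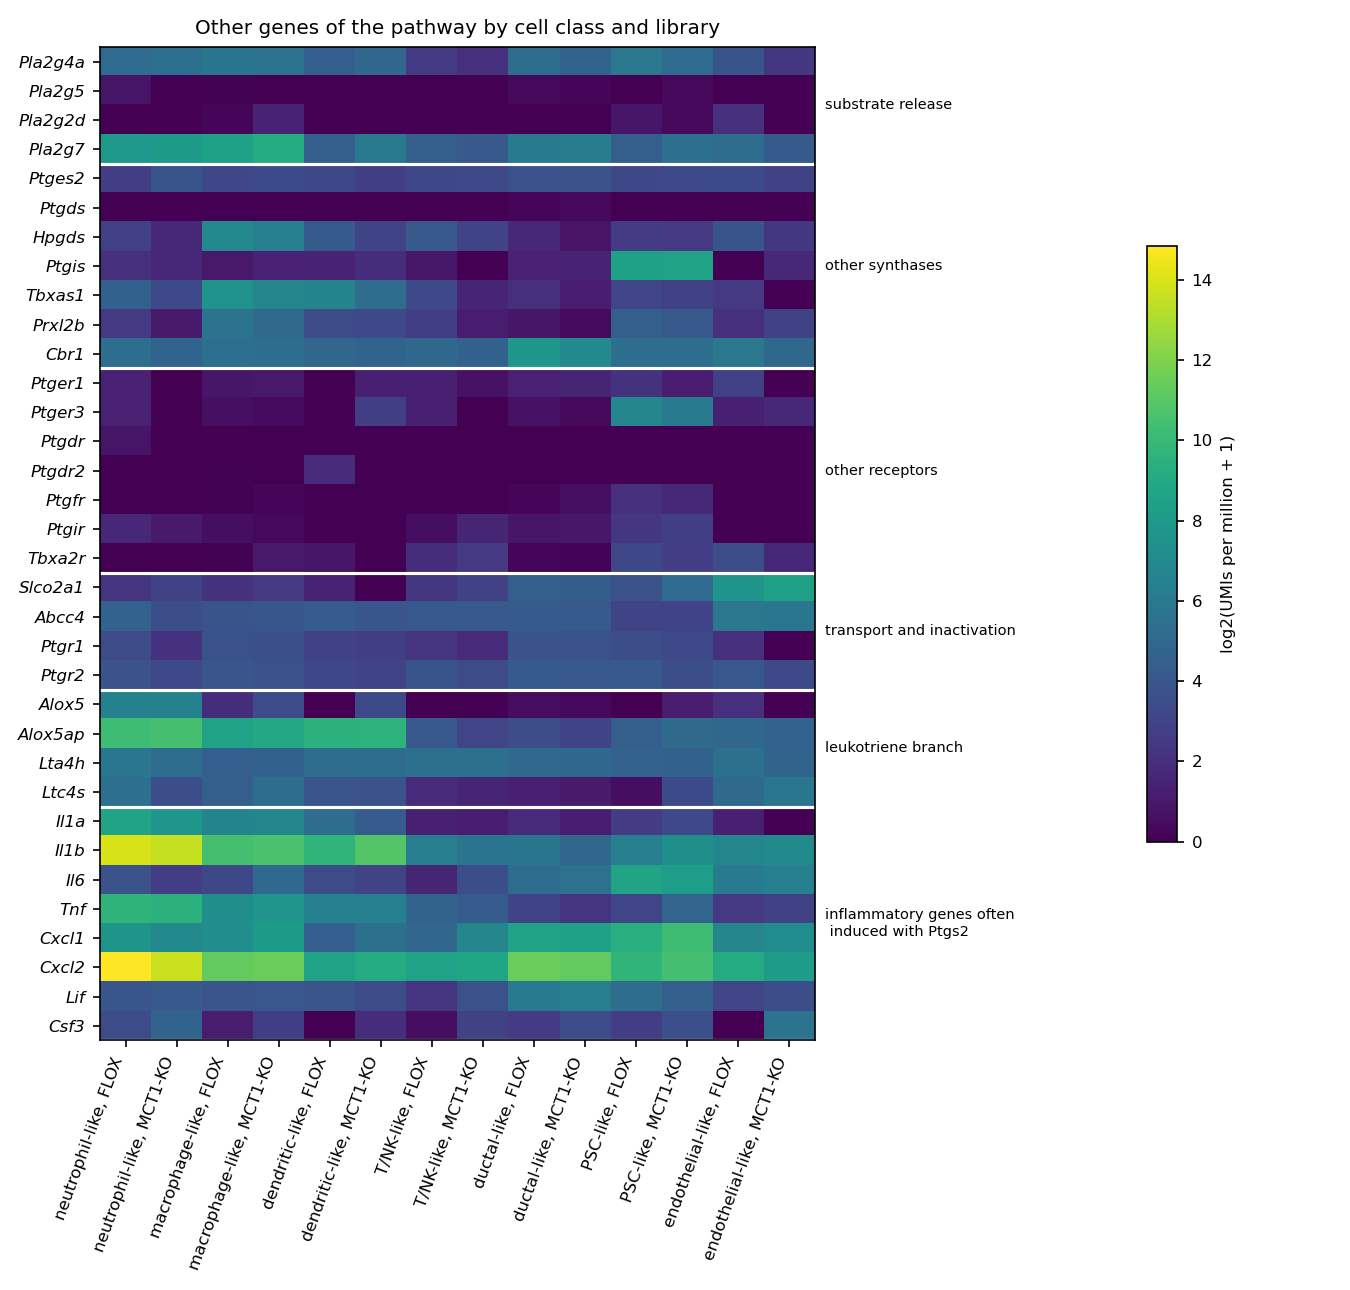
Colour scale of log2(CPM + 1) for the 34 other genes (rows, in 6 lists) in 7 cell classes of each library (columns). Ptgis and Ptger3 are bright in PSC-like cells (Ptgis 357 and 375 CPM), Tbxas1 and Hpgds in macrophage-like cells, and Slco2a1 in endothelial-like cells (202 and 360).

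Of the pairs of these genes and classes with at least 20 UMIs, 35 of 141 were past the fold, 19 of 92 (20.7%) for the lipid genes and 16 of 49 (32.7%) for the inflammatory genes, where 7.48% to 10.9% of all genes in a class were. The lists were chosen with earlier results known and were not tested. In PSC-like cells 5 of 26 were higher in MCT1-KO and 0 lower, where 5.19% and 4.84% of all genes were: Slco2a1 (11.6 and 35.2 CPM, ratio 3.02), Ltc4s (1 and 29 UMIs, ratio 20.5, interval 3.40 to 838), Tnf (ratio 3.66), Csf3 (2.12) and Il1b (2.07). Macrophage markers in that class summed to 2505 CPM in FLOX and 4462 in MCT1-KO, with 11 of 11 found in both, and their part in Tnf, Il1b and Ltc4s was not tested. In neutrophil-like cells 5 of 18 were lower (background 5%), namely Cxcl2, Ltc4s (ratio 0.267), Tbxas1 (0.384), Il6 (0.423) and Abcc4 (0.450), and Csf3 was higher (2.66). Macrophage markers in neutrophil-like cells went from 1737 to 1198 CPM (11 of 11 in both) and monocyte markers from 1475 to 7703, and their part was not tested. In macrophage-like cells 4 of 26 were higher (background 4.22%), namely Il6 (8.44 and 32.7 CPM, ratio 3.88), Alox5 (3.46), Csf3 (4.84) and Pla2g2d (3 and 20 UMIs, ratio 8.76, interval 2.60 to 46.0), and 0 were lower. Monocyte markers in macrophage-like cells went from 387 to 808 CPM, ductal markers from 215 to 326 and acinar markers from 92.4 to 1674. Neutrophil markers (301 to 177) and T cell markers (18.2 to 6.63) went the other way, and the part of these markers was not tested.

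The remaining classes held both directions. Of all genes, 3.13% to 4.60% were higher in these classes and 4.04% to 7.06% lower. Dendritic-like cells had 3 of 15 higher (Il1b 2.25, Cxcl1 2.14, Pla2g7 2.95) and 3 lower (Tbxas1 0.376, Hpgds 0.408, Il1a 0.484). The T and NK class had 3 of 15 higher (Il6 5.55, Cxcl1 3.71, Lif 3.10) and 3 lower (Tbxas1 0.218, Hpgds 0.423, Alox5ap 0.475). Ductal-like cells had 2 of 29 higher (Ptgfr 2.68, Csf3 2.04) and 4 lower (Ptger3 0.454, Prxl2b 0.409, Tbxas1 0.399, Hpgds 0.356). In endothelial-like cells, Csf3 had 0 UMIs in FLOX and 23 in MCT1-KO, at least 11.1-fold higher against a floor of 3 UMIs in the class, and Pla2g7 was lower (0.465) out of 12. In empty barcodes, Tbxas1 and Hpgds had 27.6 and 17.1 CPM in FLOX and 11.6 and 6.88 in MCT1-KO. Dendritic-like cells held more Tbxas1 than empty barcodes, at 104 and 39.1, and macrophage markers summed to 1692 and 964 in T and NK cells and to 938 and 432 in ductal-like cells (11 of 11 in each). The part of free RNA and of these markers in the ratios was not tested.

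Over the 24 clusters with at least 50 cells, both libraries pooled, the genes whose log2(CPM + 1) ran most like that of each member were ranked among 14041 genes by Pearson's r. Clusters of 1 library share depth and free RNA, so r is a description. For Ptgs2 they were Tiparp (0.939), the chemokine Cxcl2 (0.934) and Tnfaip2 (0.934), and for Ptgs1 they were the angiogenic factor Vegfa (0.883), the phosphatase gene Dusp1 (0.879) and Zfhx3 (0.871). Ptges had Galnt16 (0.810), Smim41 (0.804) and Csmd1 (0.769). Ptges3 ran with the broadly expressed Erh (0.946), the proteasome gene Psmc6 (0.940) and Set (0.936). Hpgd had Fam110b (0.935), Mrap (0.913) and Epb41l3 (0.912). For the receptors they were Cd200r1 (0.905), Bend4 (0.895) and Atp8b4 (0.893) beside Ptger2, and Trim36 (0.893), Polr3c (0.886) and Vrk2 (0.844) beside Ptger4.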

How the data were processed

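The single-cell RNA-seq libraries FLOX and MCT1-KO were deposited by the authors as raw UMI counts per gene and barcode, with no filter on barcodes. Per the study's methods, reads were trimmed with Fastp and counted with SeekOneTools. The methods and the submitters' processing notes name the human build GRCh38, whereas the deposited gene lists hold mouse Ensembl identifiers, so positions were taken from GRCm38 by identifier. The labels describe a microwell kit and the methods name other kits. The aligner version and the use of strand are not given in the sources used here. The submitters' processing notes name Seurat 4.0.0.

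From the counts, barcodes with at least 500 UMIs, 200 to 5000 genes and at most 8% mitochondrial UMIs were kept. The limit of 5000 genes left out 2060 barcodes in FLOX and 1231 in MCT1-KO. Cells were log-normalized, integrated on anchors and clustered in Seurat 5.3.0 (R 4.3.3) with 20 dimensions at resolution 0.8, and clusters were named by fixed marker lists. The rule that turns markers into names was set after the clusters were seen. Doublets were not removed in the main values. UMIs were summed per class and library and divided by the class total. Poisson, binomial (Clopper-Pearson) and ratio intervals at 95% were computed with scipy 1.17.1 and checked on data simulated as independent counts. That check covers the computation only and leaves out UMIs that gather in single cells. The intervals cover counting error only, and a deeper class has a narrower interval.

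Groups came from the genotype given in the labels. With 1 library per group no test was possible. All 7 members were described in the 7 compared classes. Of 34 other genes (lipid pathway and inflammatory), those past the fold and the classes of highest level were named, and for each member the 3 genes with the highest correlation over clusters among genes with at least 100 UMIs. The members, gene lists and markers were chosen with earlier results of these data known. Alternatives changed the cell limits, doublet removal, resolution, integration, class naming, scaling, free RNA, thresholds and thinning. Motifs were searched in RefSeq promoters, in which all 7 members were found.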

Additional observations from a re-analysis of the deposited data

Results flagged for a closer look

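The Ptgs2 ratio of MCT1-KO to FLOX pointed in opposite directions in classes of the same libraries, which is why it is listed here. It was 2.42 in dendritic-like cells, 0.306 in endothelial-like cells and 0.385 in neutrophil-like cells. The difference between the classes was not tested, because each condition was 1 library. The dendritic-like value rests on 61 and 86 UMIs and the endothelial-like value on 38 and 8, and in both classes the Ptgs2 level lay below that of empty barcodes. The interval of the dendritic-like MCT1-KO level, 99.7 to 154, held the empty-barcode level. With free RNA subtracted by acinar genes, which took too much from FLOX, the dendritic-like level was set to 0 in FLOX and was 123 CPM in MCT1-KO. The neutrophil-like value rests on 1886 and 504 UMIs and lay above empty barcodes in both libraries.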

How the results depend on the processing

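No paired analysis was possible because each condition was 1 library, and no replicate could be left out. The number of members with the same leading class in both libraries, 6 of 7, ranged from 4 to 7, and the 35 pathway pairs past the fold stayed between 26 and 48. The 6 member pairs past the fold became 3 with classes set per cell from marker UMIs, 3 with a minimum of 50 UMIs and 11 at 1.5-fold, and stayed between 4 and 7 otherwise. The share of FLOX PSC-like cells with Ptgs2 that held Ptges, 9.38%, was 0% with classes set per cell from marker UMIs, and without thinning it was 49.1% in FLOX and 38.2% in MCT1-KO, where deeper cells show more of both genes by construction. Among the ratios past the fold, 2 in endothelial-like cells turned their direction: Ptgs1 (2.26) was 0.914 with no upper limit on genes, and Ptgs2 (0.306) was 1.20 with classes set per cell from marker UMIs, and the cause was not tested. Ptgs2 in neutrophil-like cells stayed between 0.263 and 0.411, the lowest with the free RNA subtraction that took too much. Hpgd in PSC-like cells ranged from 14.0 to 28.1 and Ptger2 from 0.175 to 0.249 where at least 20 UMIs were left. The values of 28.1 and 0.175 came from the same subtraction. But with classes set per cell from marker UMIs the Hpgd level of MCT1-KO dropped from 30.7 to 0.934 CPM and the Ptger2 level of FLOX from 15.7 to 0.884. In that setting 542 of 856 PSC-like cells in FLOX and 421 of 829 in MCT1-KO were ductal-like by cluster. Without cells holding 3 UMIs of the 4 mesothelial markers the Hpgd and Ptger2 ratios were 2.19 and 0.365, with intervals that held 1. Ptgs2 in dendritic-like cells was as low as 1.57. With free RNA subtracted its level was set to 0 in FLOX, where too much was taken off, and was 123 CPM in MCT1-KO. That setting gave no ratio. Of 443 ratios recomputed, 427 moved by less than counting error. Ratios left with fewer than 20 UMIs, or with a level of 0 in FLOX, are not among the 443. Missing for this reason are Hpgd and Ptger2 in PSC-like cells with classes set per cell, or with mesothelial cells by all 4 markers left out. Ptgs2 in dendritic-like cells with free RNA subtracted is missing too. In all, 18 of the 443 crossed 1, of which 7 moved beyond their interval. The farthest was Ptges3 in neutrophil-like cells, from 0.946 to 33.5 with the free RNA subtraction that took too much. Of 754 levels, 668 moved by less than counting error and 86 by more. Leaving out the 59 shared barcodes, leaving out PSC-like cells with mesothelial markers (with or without Wt1) or adipocyte markers and adding the unnamed cluster with neutrophil markers were chosen after seeing the data. Depth limits Hpgd, Ptger2 and every endothelial-like and dendritic-like value, with fewer than 200 UMIs of most members in each class.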
